A study of Mus musculus with 12 samples.

Results

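Genes of fatty acid synthesis and desaturation were examined in J774A.1 cells, a macrophage-like mouse cell line of BALB/c origin. The genes were taken by name from the pathway: Srebf1, Acly, Acaca, Fasn, Scd1, Scd2, Elovl6, Fads1 and Fads2. This choice was made with earlier results of these data known, so shares over all genes are given as a description only. Of these 9 genes, 8 were measured among 11762 genes, and all 8 passed the filter on low values; Elovl6 was not analysed here. Polyadenylated RNA was sequenced from 4 groups of 3 biological replicates. Cells received lipopolysaccharide together with microparticles (LPS+MP), microparticles alone (MP), lipopolysaccharide alone (LPS), or mock treatment (control). LPS is a bacterial cell wall lipid that triggers Toll-like receptor 4. The composition and dose of the microparticles and the exposure times were not stated in the labels, and all 4 groups come from a single cell line. Whether each replicate was a separate culture is not stated beyond the word biological, so p-values measure the spread between these libraries.

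Mammalian cells build fatty acids from citrate that leaves the mitochondria. ATP citrate lyase (Acly) splits it to acetyl-CoA, acetyl-CoA carboxylase (Acaca) turns acetyl-CoA into malonyl-CoA, and fatty acid synthase (Fasn) joins these units into palmitate. Stearoyl-CoA desaturases (Scd1, Scd2) place the first double bond in saturated chains, and the front-end desaturases encoded by Fads1 and Fads2 act on dietary polyunsaturated chains. Srebf1 encodes SREBP-1, a membrane-bound transcription factor that is bound by a sterol-sensing escort, is activated by cleavage and drives most of these genes. In macrophages, fatty acid synthesis and desaturation shape the membrane and are known to change during Toll-like receptor signalling.

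Values are CPM, that is, a gene's reads scaled to a common library total, so a lower CPM is a lower share of the library. In bulk RNA, fewer cells expressing a gene and less of its RNA per cell cannot be told apart. All 12 macrophage markers examined were measured, and their summed level was 6919 to 7173 CPM in LPS+MP, 7140 to 7520 CPM in MP, 8594 to 9796 CPM in LPS and 7141 to 7927 CPM in control cells. Single markers moved in different directions. Emr1, which encodes the F4/80 antigen, was at 763 to 782, 68.5 to 74.9, 874 to 1012 and 32.2 to 37.2 CPM in LPS+MP, MP, LPS and control cells, and the lysozyme gene Lyz2 at 913 to 1087, 2675 to 2989, 1855 to 2114 and 2244 to 2521 CPM. Of 7 adipocyte markers 2 were measured, Lipe (11.6 to 22.7 CPM) and Fabp4 (0.33 to 3.12 CPM), and their sum was 15.02 to 18.7, 19.3 to 20.7, 14.8 to 24.8 and 17.4 to 18.8 CPM in the same groups. The 1 fibroblast marker measured, Pdgfra, was low but moved with the groups, at 6.90 to 7.97, 1.99 to 2.35, 7.67 to 10.8 and 1.00 to 1.64 CPM. The 1 hepatocyte marker measured, Alb, differed between libraries of a group, at 0 to 49.2, 0 to 26.1, 0.02 to 0.1 and 0 to 15.3 CPM. The part of these markers in the results was not tested. LPS replicate 2 stood apart, with 339 genes over 1 log2 unit away from the remaining LPS pair, against 29 and 17 genes for LPS replicates 1 and 3. Its deviation correlated with transcript GC content across genes (Spearman -0.60), and values without this library are given beside several of the results that it moved. Among the fatty acid genes it was low for Scd1 (-0.77 on the log2 scale), Srebf1 (-0.65), Fasn (-0.30) and Acly (-0.14), and differed by at most 0.07 for Acaca, Scd2, Fads1 and Fads2. The GC percentiles of these transcripts, in the same order, were 32.3, 90.5, 88.3, 59.1, 43.4, 45.2, 59.3 and 71.7. Scd1 thus deviated most at a GC content in the lower part of the range. The part of GC content in these values was not tested.

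Mean levels were lowest in cells given both agents for 7 of the 8 genes, all but Acly. Scd2, which encodes the main stearoyl-CoA desaturase RNA of these cells, had 602, 689 and 760.2 CPM in LPS+MP cells, 1149.6, 1209 and 1264 CPM in MP cells, 1751, 1792 and 1678 CPM in LPS cells, and 3031, 3170.0 and 3268 CPM in control cells. Its 4 groups did not overlap and ran in the order LPS+MP, MP, LPS, control. Fads2, the delta-6 desaturase gene, followed the same order without overlap, with 28.8, 34.9 and 33.8 CPM in LPS+MP, 52.2, 54.5 and 55.5 CPM in MP, 66.8, 69.2 and 67.2 CPM in LPS, and 107, 114 and 123 CPM in control cells. Fasn had 219, 273 and 307 CPM in LPS+MP, 379, 429.7 and 421 CPM in MP, 484, 373 and 437 CPM in LPS, and 797, 875 and 867 CPM in control cells. For Fasn the MP and LPS libraries overlapped, and both lay between the LPS+MP and the control libraries.

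Srebf1, the regulator, had 109.6, 125 and 129 CPM in LPS+MP, 188, 181 and 188 CPM in MP, 209, 134 and 214 CPM in LPS, and 303, 324 and 365 CPM in control cells. The low LPS value was that of replicate 2, which was still above every LPS+MP library. Scd1, a close relative of Scd2, was near the bottom of the range, with 3.85, 5.36 and 4.18 CPM in LPS+MP, 9.06, 7.19 and 7.65 CPM in MP, 9.69, 5.54 and 10.6 CPM in LPS, and 14.7, 20.05 and 18.6 CPM in control cells. Fads1, the delta-5 desaturase gene, had 197, 206 and 214 CPM in LPS+MP, 323, 304 and 316 CPM in MP, 324, 323 and 322 CPM in LPS, and 384, 366 and 386 CPM in control cells. Its MP and LPS libraries overlapped and lay close to control, while the LPS+MP libraries stood well below.

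The enzymes that supply the building blocks, Acly and Acaca, overlapped between LPS and control. Acly had 306, 325 and 328 CPM in LPS+MP, 319.9, 296 and 301 CPM in MP, 449, 409 and 449 CPM in LPS, and 447, 493 and 453 CPM in control cells. The LPS+MP and MP libraries of Acly overlapped, as did the LPS and control libraries. Acaca had 68.6, 81.2 and 80.2 CPM in LPS+MP, 98.2, 91.3 and 88.5 CPM in MP, 107, 115 and 111 CPM in LPS, and 112, 128 and 117 CPM in control cells. In 6 of the 8 genes (all but Acly and Acaca) every LPS+MP library lay below every MP and LPS library, and these lay below every control library; 8.34% of all genes tested had that order.

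**Figure D1:**
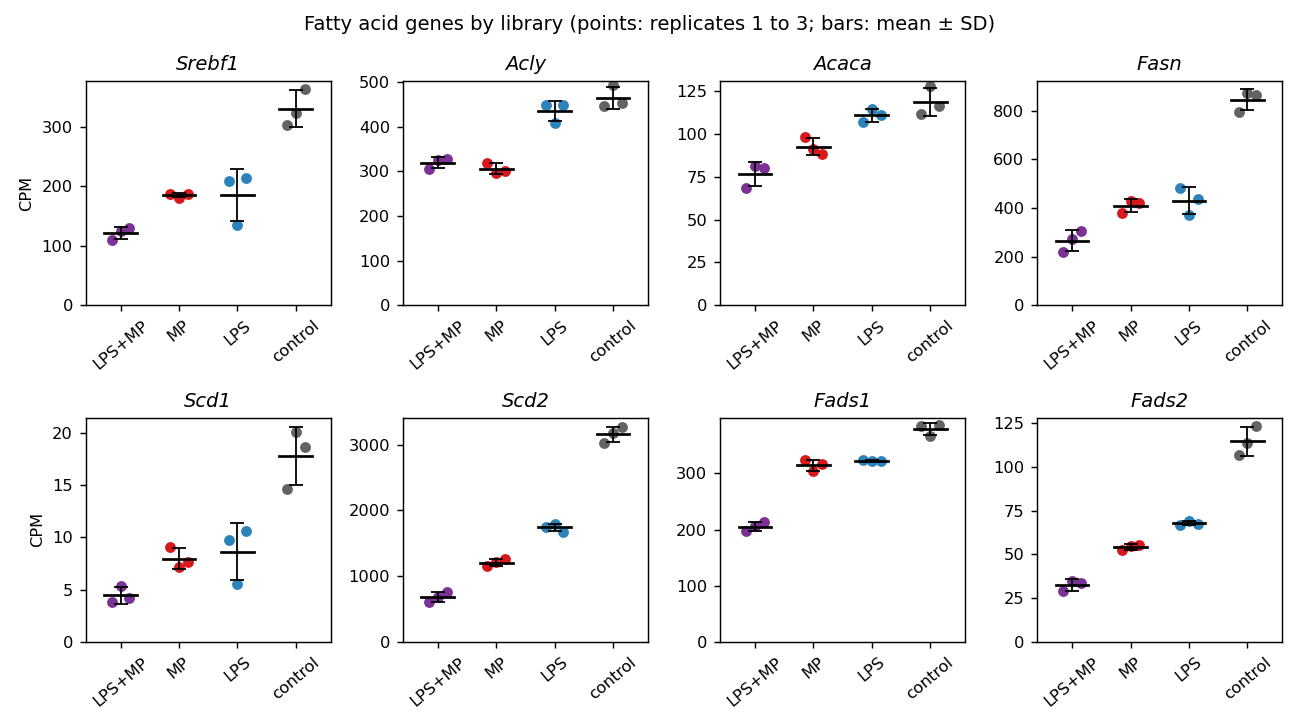
CPM (linear axes from 0) of the 8 fatty acid genes in each of the 12 libraries; points are replicates 1 to 3 and black bars the mean ± SD of a group. LPS+MP is the lowest group and control the highest in 7 genes, whereas Acly is at a similar level in LPS+MP (319.7 CPM on average) and MP (306 CPM).

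Summed over the 8 genes, the level was 1710.2 ± 163 CPM in LPS+MP, 2578 ± 60.9 CPM in MP, 3303 ± 90.7 CPM in LPS and 5428 ± 209 CPM in control cells (SD, n = 3 each). Scd2 made 39.2 to 40.9% of that sum in LPS+MP libraries, 45.6 to 47.9% in MP, 51.0 to 55.7% in LPS and 57.7 to 58.4% in control libraries. That share is of CPM not divided by length, as are the ratios between genes given below, so both also depend on transcript length. Otherwise levels of different genes were compared per transcript length (CPM per kb of the longest annotated transcript). On that scale Scd2 led in control cells at 579 ± 21.9, followed by Fads1 (109 ± 3.14), Acly (105 ± 5.58), Fasn (84.2 ± 4.28), Srebf1 (76.9 ± 7.27), Fads2 (36.4 ± 2.66), Acaca (12.5 ± 0.873) and Scd1 (3.68 ± 0.579 CPM per kb; SD, n = 3). The neighbours Fads1 and Acly, and Fasn and Srebf1, did not differ beyond their spread. On the scale of the longest transcript, Scd2 also led in LPS+MP cells, at 125 ± 14.5 CPM per kb, and Acly came next at 72.2 ± 2.79, ahead of Fads1 at 59.4 ± 2.43, Srebf1 at 28.2 ± 2.41 and Fasn at 26.5 ± 4.41. With the median transcript length of each gene as divisor, Fasn (974 CPM per kb) stood above Scd2 (828 CPM per kb) in control cells. With that divisor the order in LPS+MP cells was Fasn (307 CPM per kb), Fads1 (232), Acly (184), Scd2 (179) and Srebf1 (161), so the order of levels between genes depends on the transcript length used.

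The comparison of LPS+MP with control cells measured the joint effect of both agents. A gene was said to have fallen when its adjusted p was under 0.05 and the change over 2-fold, the thresholds of the series description (limma on log2(CPM + 1), Benjamini-Hochberg over all 11745 genes tested). By that rule 5 of the 8 genes fell and none rose, where 12.3% of all genes fell and 8.52% rose. Scd2 fell to 21.7% of its control mean (684 ± 79.1 CPM in LPS+MP, 3157 ± 119 CPM in control; log2 fold change -2.21 ± 0.09 SE, adjusted p = 3.15e-12). Fads2 fell by 1.79 ± 0.08 on the log2 scale, Scd1 by 1.78 ± 0.20, Fasn by 1.68 ± 0.11 and Srebf1 by 1.44 ± 0.14. The other 3 genes were lower without reaching 2-fold: Fads1 by -0.88 ± 0.06 (log2; adjusted p = 2.93e-09), Acaca by -0.63 ± 0.08 and Acly by -0.54 ± 0.07. All 8 were lower at an adjusted p under 0.05 and had no overlap between the groups, against 38.6% and 45.0% of all genes. The median log2 fold change was -1.56 over the 8 genes and -0.10 over all genes.

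**Figure D2:**
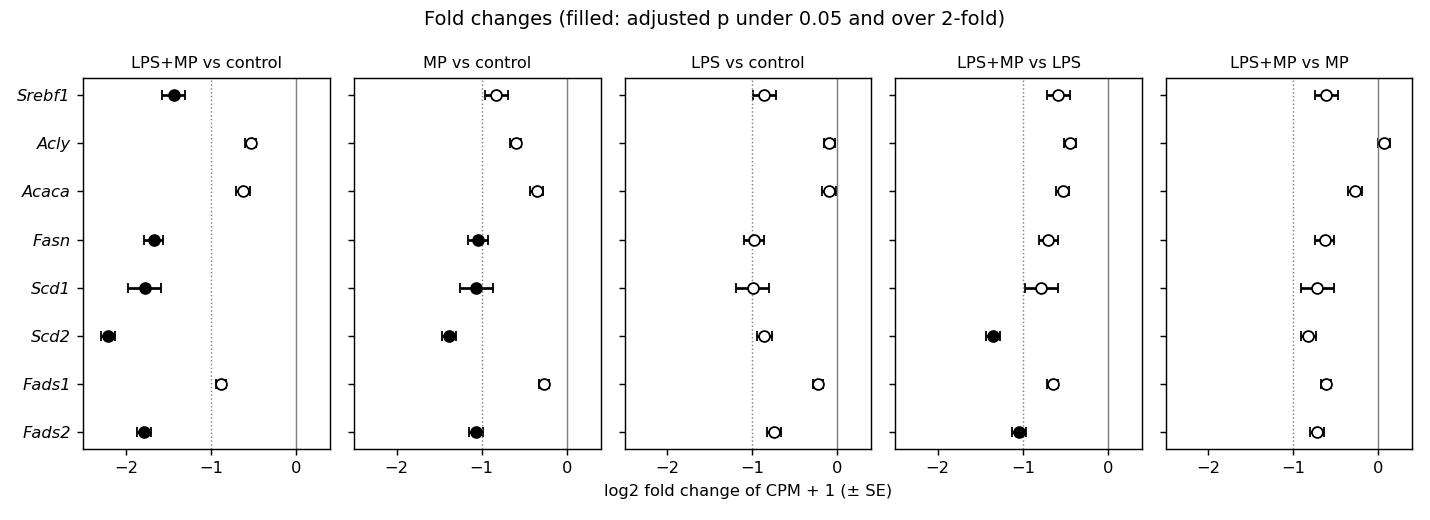
Log2 fold change of CPM + 1 (horizontal axis, ± SE) of the 8 genes in 5 comparisons; filled points passed an adjusted p under 0.05 and a 2-fold change, and the dotted line marks 2-fold lower. In LPS+MP against control 5 points are filled, from -1.44 for Srebf1 to -2.21 for Scd2, and in LPS against control and LPS+MP against MP none is.

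Promoter sequences are shown for a few of these genes as a description. The part of any regulator in their changes was not tested. Fasn and Fads2 fell, Acly did not reach 2-fold, and Srebf1 encodes the regulator. RefSeq windows (GRCm38.p6, from 250 bases before to 50 after a start site, printed 5′ to 3′ on the gene's strand) were found for 5 of the 8 genes, Srebf1, Acly, Acaca, Fasn and Fads2. Capitals mark matches on either strand to the CCAAT box (CCAAT, bound by NF-Y) and the GC box (GGGCGG, bound by Sp1 family factors). In Fasn, a pair of CCAAT matches on opposite strands share bases.
Fasn, chr11:120824498-120824797, minus strand: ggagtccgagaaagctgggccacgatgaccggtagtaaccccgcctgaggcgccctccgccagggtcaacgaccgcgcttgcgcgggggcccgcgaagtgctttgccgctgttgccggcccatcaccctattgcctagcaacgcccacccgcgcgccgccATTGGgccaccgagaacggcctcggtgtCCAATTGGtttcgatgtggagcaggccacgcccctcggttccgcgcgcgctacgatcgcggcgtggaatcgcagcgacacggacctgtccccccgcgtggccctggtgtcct
Fads2, chr19:10101454-10101753, minus strand: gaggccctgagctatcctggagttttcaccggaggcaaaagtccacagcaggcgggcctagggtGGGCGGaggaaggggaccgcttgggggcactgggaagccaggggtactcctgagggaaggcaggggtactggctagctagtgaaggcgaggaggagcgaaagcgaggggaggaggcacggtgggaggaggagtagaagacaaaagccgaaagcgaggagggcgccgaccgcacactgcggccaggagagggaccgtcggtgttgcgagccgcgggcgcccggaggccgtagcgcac
Acly, chr11:100527951-100528250, minus strand: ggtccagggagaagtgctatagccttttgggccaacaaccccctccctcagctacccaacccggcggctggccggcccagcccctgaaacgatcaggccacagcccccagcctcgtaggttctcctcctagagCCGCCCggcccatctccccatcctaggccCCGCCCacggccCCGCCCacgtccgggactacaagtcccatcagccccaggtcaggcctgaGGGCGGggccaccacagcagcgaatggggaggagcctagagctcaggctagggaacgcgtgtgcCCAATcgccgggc
Srebf1, chr11:60222532-60222831, minus strand: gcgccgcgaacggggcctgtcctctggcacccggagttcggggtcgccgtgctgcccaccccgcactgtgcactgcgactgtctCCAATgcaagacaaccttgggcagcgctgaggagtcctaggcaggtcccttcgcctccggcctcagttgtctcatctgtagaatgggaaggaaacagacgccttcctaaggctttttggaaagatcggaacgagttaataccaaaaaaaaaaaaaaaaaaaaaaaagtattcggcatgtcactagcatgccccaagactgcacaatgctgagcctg

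The Fasn window held 3 CCAAT matches, at -90 to -86, -62 to -58 and -59 to -55 from the start site. The Acly window held 4 GC boxes and 1 CCAAT match, and the Fads2 window 1 GC box. Srebf1 has 3 such windows in RefSeq, since it is transcribed from more than 1 start site, and the deposited value is 1 level for the whole gene. The Srebf1 window printed, at the start site of the deposited table, held 1 CCAAT match at -166 to -162, and the other windows of this gene held 3 matches each. The Fasn and Acaca windows are at RefSeq starts that are not the starts in the deposited table, and for Acaca the RefSeq start (84195438) lies far inside the deposited gene, which starts at 84129672. Of all 32851 windows 37.4% held a CCAAT match and 35.7% a GC box. The sterol regulatory element (searched as TCACNCCAC, in 1.24% of all windows), the palindromic E-box (CACGTG, 7.15%) and the LXR element (a direct repeat of AGGTCA spaced by 4 bases, 0.0152%) had no exact match in the 7 windows of these genes, which says only that those letters are not in these stretches.

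MP alone, against control, asked what microparticles did without LPS. Here 4 of the 8 genes fell, Scd2, Fads2, Scd1 and Fasn, and none rose, where 1.85% of all genes fell and 1.82% rose. Scd2 fell to 1208 ± 57.0 CPM in MP cells, against 3157 ± 119 CPM in control cells (log2 fold change -1.39 ± 0.09, adjusted p = 1.53e-08), and 0.6% of all genes had a lower log2 fold change. Fads2 fell by 1.07 ± 0.08 on the log2 scale, to 54.1 ± 1.66 CPM in MP against 115 ± 8.37 CPM in control. Scd1 (-1.06 ± 0.20) and Fasn (-1.04 ± 0.11) fell by amounts close to the 2-fold limit, and their calls depended on single libraries. Without MP replicate 1 Fasn stood at -0.99, and Scd1 stood at -0.998 without MP replicate 2 and at -0.97 without control replicate 2, with adjusted p-values of 7.72e-05, 0.0043 and 0.00486. Srebf1 (-0.83 ± 0.14), Acly (-0.60 ± 0.07), Acaca (-0.36 ± 0.08) and Fads1 (-0.27 ± 0.06) were lower within 2-fold. All 8 genes were lower at an adjusted p under 0.05 (18.3% of all genes) with no overlap between MP and control (28.1%). Their median was -0.94, against 0.02 for all genes.

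LPS alone, against control, gave lower levels of the regulator, the synthase and the desaturases, and no difference that passed the test in Acly and Acaca. None of the 8 genes fell by over 2-fold in limma, where 8.05% of all genes did (8.3% rose), and 6 genes had lower levels with an adjusted p under 0.05 (6 also at an unadjusted p under 0.05), where 35.6% of all genes were. Scd1 (-0.997 ± 0.20), Fasn (-0.98 ± 0.11), Scd2 (-0.86 ± 0.09), Srebf1 (-0.86 ± 0.14), Fads2 (-0.75 ± 0.08) and Fads1 (-0.23 ± 0.06) were those 6, on the log2 scale, and each had no overlap between LPS and control (36.9% of all genes). Acly stood at -0.09 ± 0.07 (adjusted p = 0.253; 436 ± 23.3 CPM in LPS, 464 ± 24.7 CPM in control) and Acaca at -0.10 ± 0.08 (adjusted p = 0.313). Without LPS replicate 2 the log2 fold changes were -0.64 ± 0.08 for Srebf1, -0.74 ± 0.15 for Scd1 and -0.88 ± 0.10 for Fasn. Fasn passed 2-fold without LPS replicate 1 (-1.07) or control replicate 1 (-1.02). Scd1 passed it without LPS replicate 1 (-1.09), LPS replicate 3 (-1.16) or control replicate 1 (-1.12), and with a pseudocount of 0.1 (-1.08).

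LPS+MP against LPS gave the effect of microparticles on an LPS background. Scd2 fell to 684 ± 79.1 CPM in LPS+MP, against 1740.5 ± 58.0 CPM in LPS (-1.35 ± 0.09 on the log2 scale, adjusted p = 1.65e-08). Fads2 fell by 1.04 ± 0.08, to 32.5 ± 3.25 CPM in LPS+MP against 67.8 ± 1.27 CPM in LPS. These were the 2 genes that fell, where 3.89% of all genes fell and 0.63% rose; the Fads2 call ended without LPS+MP replicate 1 (-0.96) and with quantile normalization (-0.96). All 8 genes were lower at an adjusted p under 0.05 (22.2% of all genes) with no overlap between the groups (26.5%). The other 6 ranged from -0.78 ± 0.20 for Scd1 to -0.44 ± 0.07 for Acly, with Fasn at -0.70 ± 0.11, Fads1 at -0.65 ± 0.06, Srebf1 at -0.58 ± 0.14 and Acaca at -0.53 ± 0.08. Without LPS replicate 2, Scd1 also fell (-1.04 ± 0.15, adjusted p = 1.17e-05), Srebf1 stood at -0.80 ± 0.08 and Fasn at -0.80 ± 0.10. Of the calls over all genes in this comparison 13.9% were higher in LPS+MP, and 27.4% with quantile normalization.

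The effect of microparticles with LPS was then set against their effect without it (the interaction, as the log2 difference LPS+MP minus LPS, less the difference MP minus control). Fads1 was the 1 gene of 8 with an adjusted p under 0.05, where 22.0% of all genes had one and 15.5% had one with a negative value. With LPS present, Fads1 had 205 ± 8.41 CPM in LPS+MP against 323 ± 1.28 CPM in LPS. Without LPS, it had 314 ± 9.68 CPM in MP against 378 ± 10.9 CPM in control. The log2 fold changes were -0.65 ± 0.06 and -0.27 ± 0.06, and the interaction was -0.38 ± 0.08 (adjusted p = 0.00447; 0.000829 to 0.0171 over the alternatives), under the 2-fold limit, which 3.68% of all genes passed downward and 1.02% upward. The interactions of Scd2 (0.03 ± 0.12) and Fads2 (0.03 ± 0.12) lay within 1 SE of 0, with adjusted p-values of 0.87 and 0.9. Those of Fasn (0.35 ± 0.16, adjusted p = 0.137), Scd1 (0.28 ± 0.28), Srebf1 (0.24 ± 0.19), Acaca (-0.18 ± 0.11) and Acly (0.16 ± 0.10) did not pass. Without LPS+MP replicate 1 that of Fasn was 0.48 (adjusted p = 0.0342). Leaving out LPS replicate 2 gave interactions of 0.03 ± 0.10 for Srebf1, 0.02 ± 0.20 for Scd1 and 0.25 ± 0.13 for Fasn, and none passed.

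**Figure D3:**
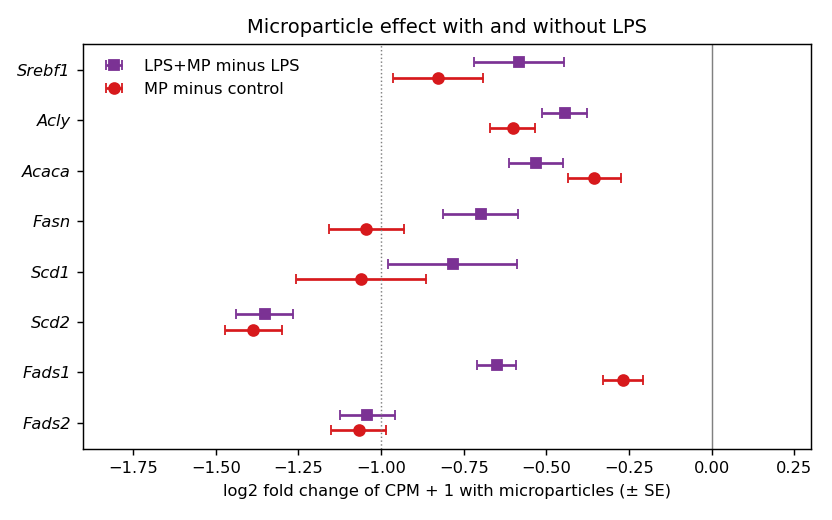
Log2 fold change of CPM + 1 with microparticles (± SE) in cells that received LPS (squares, LPS+MP minus LPS) and in cells that did not (circles, MP minus control); the dotted line marks 2-fold lower. The pairs of points lie close together for Scd2 (-1.35 and -1.39) and apart for Fads1 (-0.65 and -0.27).

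LPS+MP against MP measured what LPS added in cells that received microparticles. No gene of the 8 fell by over 2-fold (limma; 7 had an unadjusted p under 0.05), where 7.88% of all genes fell and 5.71% rose. At an adjusted p under 0.05, 7 were lower in LPS+MP, and these did not overlap between groups, against 36.6% and 44.6% of all genes. They ran from -0.82 ± 0.09 for Scd2, -0.72 ± 0.08 for Fads2 and -0.72 ± 0.20 for Scd1 to -0.27 ± 0.08 for Acaca. Srebf1 (-0.61 ± 0.14), Fasn (-0.63 ± 0.11) and Fads1 (-0.61 ± 0.06) were close to each other. Acly did not pass (0.06 ± 0.07, adjusted p = 0.439; 319.7 ± 12.4 CPM in LPS+MP, 306 ± 12.5 CPM in MP). Its sign depended on the scaling, at -0.06 with quantile normalization and 0.21 (adjusted p = 0.0176) with median-ratio scaling. Scd2 passed 2-fold with quantile normalization (-1.10). Acaca lost its adjusted p with median-ratio scaling (-0.13, 0.215) and without LPS+MP replicate 1 (-0.20, 0.0623), and Scd1 with quantile normalization (-0.43, 0.0760). The median of all genes in this comparison was -0.14, and -0.01 after median-ratio scaling; in LPS+MP against control it was -0.10 and 0.00.

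MP and LPS were also compared directly, a comparison added after the values were seen. No gene of the 8 differed by over 2-fold (limma; 4 had an unadjusted p under 0.05), where 6.64% of all genes were that much lower in MP and 5.0% that much higher. Acly (306 ± 12.5 CPM in MP, 436 ± 23.3 CPM in LPS; log2 fold change -0.51 ± 0.07, adjusted p = 1.25e-05), Scd2 (-0.53 ± 0.09), Fads2 (-0.32 ± 0.08) and Acaca (-0.26 ± 0.08) were lower in MP (adjusted p under 0.05), as were 21.2% of all genes, and had no overlap between the groups (21.8%). Scd2 lost its adjusted p with quantile normalization (-0.18, 0.102) and Acaca without MP replicate 3 (-0.23, 0.0530). Srebf1 (0.03 ± 0.14), Fasn (-0.07 ± 0.11), Scd1 (-0.06 ± 0.20) and Fads1 (-0.04 ± 0.06) did not pass. Without LPS replicate 2, Srebf1 was lower in MP (-0.19, adjusted p = 0.0380), and so was Fads1 with median-ratio scaling (-0.16, adjusted p = 0.0420).

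Ratios within a library do not depend on its scaling and are given with no test. The Fads2 to Fads1 ratio was 0.146, 0.170 and 0.158 in LPS+MP, 0.162, 0.179 and 0.175 in MP, 0.206, 0.214 and 0.209 in LPS, and 0.278, 0.311 and 0.320 in control libraries. The control libraries stood above all others and the LPS libraries above those with microparticles. The Fasn to Acaca ratio was 3.20, 3.36 and 3.83 in LPS+MP, 3.86, 4.71 and 4.76 in MP, 4.51, 3.25 and 3.93 in LPS, and 7.12, 6.84 and 7.43 in control libraries, so every treated library was below every control library. The Scd2 to Scd1 ratio overlapped across all 4 groups, at 156 ± 26.7 in LPS+MP, 153 ± 23.1 in MP, 221 ± 89.7 in LPS and 180.1 ± 24.7 in control libraries (SD, n = 3 each), with the highest value, 323, in LPS replicate 2.

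**Figure D4:**
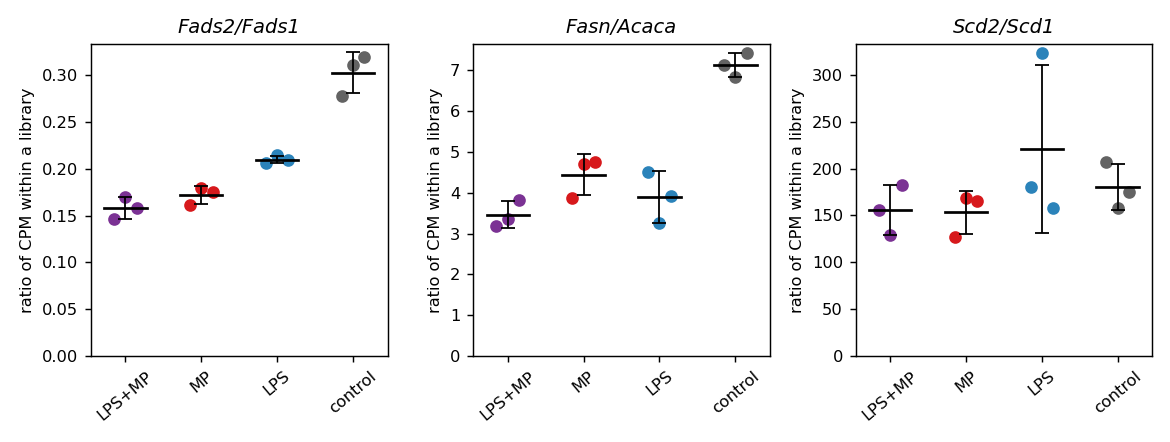
Ratios of the CPM of a pair of genes within each library (linear axes from 0; points are libraries, bars the mean ± SD). Fads2/Fads1 and Fasn/Acaca are highest in the 3 control libraries, with means of 0.303 and 7.13, and Scd2/Scd1 overlaps across the groups.

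Over the 12 libraries the 8 genes correlated with each other at a Pearson r of 0.657 (Acly and Fads1) to 0.996 (Scd2 and Fads2), with a median of 0.905 over 28 pairs. All libraries share the same treatments and library totals, so this describes the profile over the groups. Of all genes tested, those most like Scd2 were Fads2 (0.996), Tlr13 (0.993) and the sterol-regulated gene Acat2 (0.993). Fads2 was most like Scd2, Ptpro (0.991) and Acat2 (0.991). Srebf1 was most like Scd4 (0.989), another stearoyl-CoA desaturase gene, then Pde4a (0.984) and Scd1 (0.983). Fads1 was most like Tm7sf2 (0.988), which encodes a sterol reductase. Fasn was most like Ints3 (0.995), Acaca like Pik3cg (0.972), and Acly like Cd5 (0.984).

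Other lipid genes put these changes beside their pathway. Of 14 tested genes of SREBP processing and upstream regulators, 1 fell and 2 rose in LPS+MP against control (median -0.37). Over all genes 12.3% fell and 8.52% rose. With MP 1 of the 14 fell and 0 rose, against 1.85% and 1.82% of all genes. With LPS 1 fell and 1 rose, against 8.05% and 8.3%. The gene that fell in each was Insig1, which retains the SREBP escort in the endoplasmic reticulum. Its level was 54.0 ± 5.46 CPM in LPS+MP, 92.3 ± 3.94 in MP and 103 ± 9.45 in LPS, against 252 ± 6.68 CPM in control. Srebf2 was lower within 2-fold in LPS+MP (-0.88). Nr1h3, which encodes the oxysterol receptor LXR alpha, rose with LPS (1.22 ± 0.16 on the log2 scale) and with LPS+MP (1.42 ± 0.16), and Mlx, a partner of the carbohydrate-responsive factor, rose with LPS+MP (1.07 ± 0.09). Of 19 tested genes of cholesterol synthesis and uptake, 14 fell and none rose in LPS+MP against control, with a median of -1.25, against 12.3% of all genes that fell. With MP 6 of the 19 fell (median -0.88), against 1.85% of all genes, and with LPS 1 fell (median -0.76), against 8.05%. The 6 that fell with MP included Acat2 (-1.50 ± 0.10), Idi1 (-1.26 ± 0.13), Lss (-1.21 ± 0.09) and Hmgcs1 (-1.13 ± 0.11).

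Genes that feed or extend the pathway had medians closer to that of all genes (-0.10) in LPS+MP against control, where 12.3% of all genes fell and 8.52% rose. Of 16 genes of acetyl-CoA, NADPH and malonyl-CoA supply, 3 fell and 1 rose (median -0.26). Acss2, which makes acetyl-CoA from acetate, fell by 1.99 ± 0.13 on the log2 scale to 7.35 ± 1.13 CPM, against 31.9 ± 1.19 CPM in control. Idh1 fell by 1.38 ± 0.07 and Mdh1 by 1.02 ± 0.07, while malic enzyme (Me1), an NADPH source, rose by 1.32 ± 0.12; the Mdh1 call ended with median-ratio scaling and quantile normalization, and without LPS+MP replicate 3 or control replicate 1. Of 15 other elongation and desaturation genes 3 fell: Scd4 (-2.32 ± 0.20), the elongase gene Elovl5 (-1.39 ± 0.07) and Fads6 (-1.27 ± 0.17), which was under 2 CPM in every group mean. With LPS alone, 1 of these 15 genes fell and 1 rose, where 8.05% of all genes fell and 8.3% rose. Scd4 fell by 1.23 ± 0.20 with LPS (-0.96, within 2-fold, if LPS replicate 2 is left out), and the 3-hydroxyacyl-CoA dehydratase gene Ptplad1 rose by 1.14 ± 0.07.

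Genes that use fatty acids are read against the same shares. Of 21 genes of fatty acid activation and glycerolipid synthesis, 4 rose and 2 fell in LPS+MP against control (median 0.19). Dgat2, which completes triglyceride synthesis, rose to 43.2 ± 4.29 CPM in LPS+MP and 74.2 ± 21.5 CPM in LPS, against 7.09 ± 1.31 CPM in control. The acyl-CoA synthetase gene Acsl1 rose by 1.93 ± 0.07 on the log2 scale and Lpcat2 by 1.80 ± 0.10, and the phosphatidate phosphatase gene Lpin1 fell by 2.35 ± 0.13. Of 23 genes of fatty acid oxidation, 1 rose (Ppard, 1.35 ± 0.13) and 2 fell (Acaa2, -1.71 ± 0.14; Hadh, -1.28 ± 0.08), with a median of -0.05, so the share called was no higher than over all genes. Of 13 LXR targets outside fatty acid synthesis 1 rose, Nr1h3, and 3 fell (median -0.27). Of these Lpl, the lipoprotein lipase gene, fell to 24.9 ± 4.19 CPM in LPS+MP, against 198 ± 6.32 CPM in control. With LPS alone 2 of the 13 rose and 2 fell (median -0.12), where 8.3% of all genes rose and 8.05% fell. The cholesterol exporter gene Abca1 rose to 857 ± 78.5 CPM in LPS, against 316 ± 25.3 CPM in control (1.43 ± 0.09 on the log2 scale), as did Nr1h3, while Lpl (-2.07 ± 0.11) and the apolipoprotein gene Apoe (-2.22 ± 0.33) fell.

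**Figure D5:**
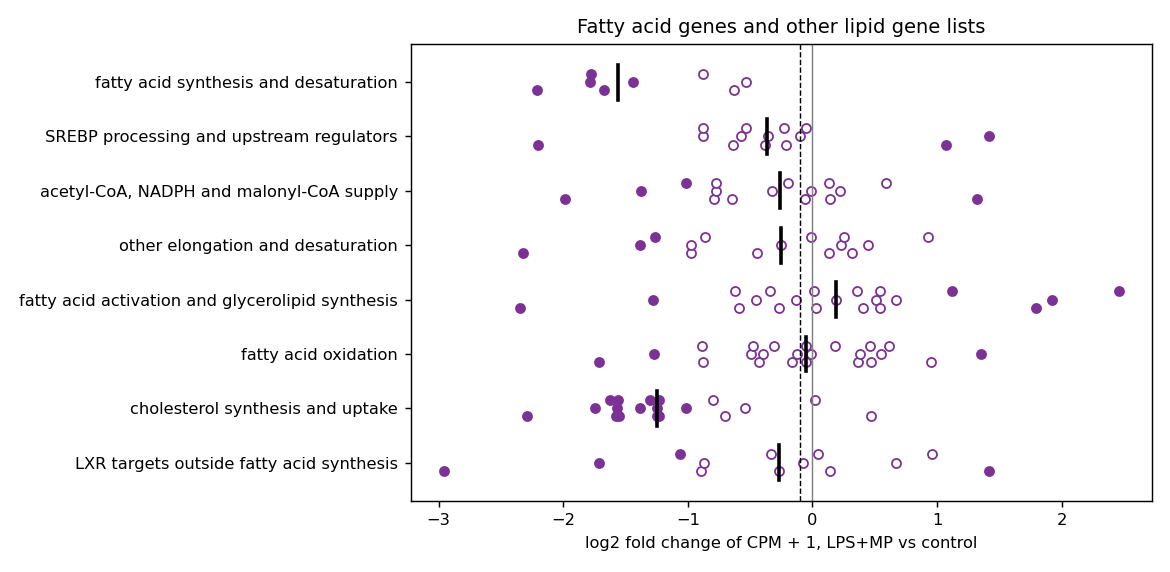
Log2 fold change of CPM + 1 in LPS+MP against control for the 8 fatty acid genes and 7 other lipid gene lists; each point is a gene, filled points passed an adjusted p under 0.05 and a 2-fold change, black bars are list medians and the dashed line is the median of all genes (-0.10). The fatty acid (-1.56) and cholesterol (-1.25) lists have the lowest medians, and fatty acid activation and glycerolipid synthesis the highest (0.19).

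Positions are those of the deposited table, whose genome build is not named. Srebf1 lay on chromosome 11 (60199089 to 60222581, minus strand), as did Acaca (84129672 to 84401651, plus), Acly (100476353 to 100528000, minus) and Fasn (120805940 to 120824178, minus). Fads2 (10064164 to 10101503, minus) and Fads1 (10182888 to 10196870, plus) lay on chromosome 19, as did Scd2 (44293676 to 44306864, plus) and Scd1 (44394451 to 44407709, minus). Reads from near-identical copies could affect some values. Of the 50-base windows of the Acaca transcript 55.4% also occurred in the annotated transcript of Gm5182. For Scd1 4.66% and for Scd2 4.01% of the windows occurred in other genes. Scd1 and Scd2 shared windows with each other, and with Scd3 and Scd4. Whether reads of the abundant Scd2 had a part in the low Scd1 values was not tested. For Fads2 the share was 0.16%, and for Srebf1, Acly, Fasn and Fads1 no window was shared. Exons of Rai1 on the opposite strand covered 2.5% of the Srebf1 transcript, and the strand setting of the counting is not given.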

How the data were processed

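RNA sequencing values of 12 libraries were used, grouped by the labels. The submitters' processing notes name TopHat2 (2.1.1), Trimmomatic (0.36), FastQC (11.5), edgeR, DESeq2 and HTSeq without saying what each did, and name no genome build. The authors' deposited columns are headed RPKM but were read as CPM: each summed to between 998867 and 999273, and the deposited log2 CPM column differed from the log2 mean of the columns with an SD of 0.20, against 0.99 with a length term. Low values were whole multiples of 1 step (tolerance 0.05 of a step) in 2 libraries only, with shares of 0.138 to 0.837 in the other 10. The step was 0.0248 CPM in MP replicate 1 and 0.0247 CPM in LPS replicate 3. Depth is not stated and was not derived from these steps. For these reasons no count model was run and no counting intervals are given.

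Genes reaching 1 CPM in at least 3 libraries (11745) were transformed as log2(CPM + 1), which understates changes of low genes. They were fitted with limma 3.58.1 (R 4.3.3) as 4 group means over all 12 libraries, with a variance trend. The procedure was tested on simulated data with independent normal errors. The pass mark of that test did not cover recovery of changes near 2-fold, shifts in scaling or a deviating library. Transcript lengths, GC content and shared windows came from GENCODE M21 (GRCm38), which held 11655 of the transcript IDs; of these 80.3% had both ends within 1000 bases of the deposited ones. Promoters came from RefSeq (GRCm38.p6).

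The members and lists were chosen with earlier results of these data known. The text names the members, up to 4 called genes of each list by adjusted p (or the 2 most abundant), and the genes with the highest correlation to a member, predicted genes left out; not all are described. The replicate numbers were checked for pairing: residuals of libraries with equal numbers correlated at 0.018 (median of 18; -0.247 to 0.158), so no block was used. The alternatives left out each library in turn, dropped the fold threshold, the variance trend or the groups not compared, added the replicate number, or changed the pseudocount, the filter or the scaling (quantile, median-ratio). They were extended to the comparison of MP with LPS and to the list counts after seeing the data.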

Additional observations from a re-analysis of the deposited data

Results flagged for a closer look

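For Fads1 the effect of microparticles with LPS differed from that without LPS in a test of the difference itself. The interaction was -0.38 ± 0.08 on the log2 scale (limma, adjusted p = 0.00447), and all 3 LPS+MP libraries lay below all 3 LPS libraries, as all 3 MP libraries lay below all 3 control libraries. The size was under 2-fold. An interaction with an adjusted p under 0.05 was found for 22.0% of all genes (15.5% negative), so 1 of 8 genes is no more than that share. Whether the low spread of Fads1 in the LPS libraries (322 to 324 CPM) has a part in this was not tested.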

How the results depend on the processing

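Without the fold threshold, the fatty acid genes called lower numbered 8 in LPS+MP against control, 8 in MP against control, 6 in LPS against control, 8 in LPS+MP against LPS, 7 in LPS+MP against MP, 4 in MP against LPS and 1 for the interaction. Over all genes those called lower numbered 4535, 2155, 4178, 2607, 4295, 2487 and 1826 in the same order. All genes called in either direction numbered 7786, 4570, 7297, 4138, 6527, 6573 and 2583. With a pseudocount of 0.1, 1 fatty acid gene was called in LPS against control, and 807 genes in all, against 531, in LPS+MP against LPS. With quantile normalization 1 fatty acid gene was called lower in LPS+MP against LPS and 1 in LPS+MP against MP, where 341 and 730 genes in all were. With 1 library left out the fatty acid genes called lower numbered 5 in LPS+MP against control, 3 to 4 in MP against control, 0 to 2 in LPS against control and 1 to 3 in LPS+MP against LPS. Over all genes, calls in either direction then numbered 2397 to 2462, 400 to 486, 1892 to 2038 and 521 to 584. With all 12 libraries, the genes called lower alone numbered 1447, 217, 945 and 457 in the same order. The causes of these differences were not tested.

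Signs turned only for values whose adjusted p as reported did not pass; 1 of the turned values passed it, Srebf1 in MP against LPS without LPS replicate 2 (-0.187, adjusted p = 0.038). With quantile normalization Acly in LPS+MP against MP was -0.055, Fads1 in MP against LPS 0.018 and the Scd2 interaction -0.209; with median-ratio scaling Srebf1 in MP against LPS was -0.088. With 1 library left out, MP against LPS ranged from -0.187 to 0.146 for Srebf1, -0.166 to 0.021 for Fasn and -0.321 to 0.095 for Scd1, and the interaction from -0.046 to 0.122 for Scd2 and -0.029 to 0.107 for Fads2. Of 1112 recomputed single-gene values 13 turned sign and 5 lost or 8 gained a call; of the list counts 98 moved by over 1.5 times and 1848 did not. The interaction calls over all genes were 21.7% higher, and 38.7% with quantile normalization.

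With the replicate number as a block, the calls were the same in number: 5, 4, 0, 2, 0, 0 and 0 fatty acid genes, and 2448 genes in all for LPS+MP against control. The labels do not tie equal numbers to a shared day or batch, and correlations of equal-numbered libraries were not all over 0.1 (-0.247 to 0.158), so the numbers were not taken to pair libraries, although for 7 of 12 the best match had the same number. Depth per library is not stated and was not derived, which limits statements on Scd1 and other low genes.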
